A study of Mus musculus with 4 samples.

Results

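The plasminogen activation system was followed through 6 genes, all present by symbol among the 33641 genes of the tables: the activators Plat and Plau, the urokinase receptor gene Plaur, the inhibitor gene Serpine2, and Anxa2 and S100a10, whose products form a cell-surface receptor for plasminogen. The cells were primary cardiac fibroblasts from wild-type C57BL/6J mice 12 weeks of age. One group of 2 libraries received vehicle and the other 2 received 10 ng/ml TGFbeta, a growth factor that drives fibroblasts toward matrix-producing myofibroblasts. All 4 cultures also received the crosslinking nucleoside 4-thiouridine, 20 h and again 4 h ahead of irradiation at 368 nm, so the vehicle group is not an untouched culture. The series text describes RNA eluted from the RNA-binding protein HuR after crosslinking and immunoprecipitation (PAR-CLIP), whereas the sample labels describe total RNA. Which of these the libraries hold is not settled, and no input library was analysed here. A level, a rank or a change below may therefore be one of HuR-bound RNA or of total RNA.

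Plasminogen is a circulating zymogen that tissue-type activator (tPA, from Plat) and urokinase (uPA, from Plau) cleave to plasmin, a broad serine protease. Plasmin dissolves fibrin, degrades several matrix proteins, and can activate matrix metalloproteases and latent growth factors. The receptor encoded by Plaur, a lipid-anchored protein, holds urokinase at the cell surface. Annexin A2 bound to S100A10 assembles plasminogen with tissue-type activator on the membrane. Serpins such as protease nexin-1, from Serpine2, block the activators and thrombin. In the heart the system takes part in the clearing and remodelling of matrix after injury.

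With TGFbeta, the level of Plaur rose 3.39-fold and that of Plat fell to 27.4% of the vehicle level. Of the 6 genes, 1 was called higher and 1 lower by limma (adjusted p under 0.05), where 5.92% of the 15815 tested genes were called, 1.54% higher and 4.38% lower. Plau, Serpine2, Anxa2 and S100a10 did not pass. Without adjustment, 3873 of the 15815 tested genes had a limma p under 0.05, the background for such counts below. All 6 passed the filter on low values, a mean of at least 1 TPM (an abundance scaled for gene length and to the same total in every library). The libraries were bulk cultures, in which fewer cells of a type and less RNA per cell cannot be told apart.

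The sites shown first come from the 3′ untranslated regions (UTRs), because HuR, the protein of the study, is known to bind U-rich and AU-rich stretches there. The pentamer ATTTA, the core letters of AU-rich elements, occurred 2 times in each 3′ UTR of Plat, Plau and Plaur and 0 times in those of Serpine2, Anxa2 and S100a10. Each line gives the motif in capitals with up to 12 bases on each side, 5′ to 3′ on the transcript, in GRCm38 coordinates. All lie in the last exon on the plus strand.
Plat, exon 14, chr8:22782251-22782279: agcagatgtagcATTTAcctgtgacaggt
Plat, exon 14, chr8:22782737-22782765: taacactagtatATTTAtattttaatcta
Plau, exon 11, chr14:20843290-20843318: tacatacttaatATTTAataattatgttc
Plau, exon 11, chr14:20843317-20843345: tctgctatttttATTTAtatctattttta
Plaur, exon 7, chr7:24475677-24475705: gttattgctctaATTTAttatataaatat
Plaur, exon 7, chr7:24475747-24475775: ccccactgtcacATTTAgcttgggaagat

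The second site of Plat and the second of Plau also held the longer form TATTTAT, which contains the pentamer, and no other member held it. These counts are ordinary for UTRs of like length. Among 1167 UTRs within 10% of the 738 bases of Plat, 62.3% held at least 1 ATTTA and 35% held 2 or more. For the 935 bases of Plau the share with 2 or more was 45.2% of 1320 UTRs, and for the 496 bases of Plaur it was 22.5% of 947. The 3 UTRs with no match are 808 (Serpine2), 290 (Anxa2) and 239 (S100a10) bases long, and 63.8%, 38.6% and 32.2% of UTRs of like length held the pentamer. The 3′ UTR of Plau stood out for a run of 38 T, since 0.152% of UTRs of like length had a run as long, while the longest run in the other 5 members was between 5 and 7. A match is a description of letters; binding by HuR at these sites was not tested. No link between these sites and the change of any member was tested.

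Plat (ENSMUSG00000031538.6, GRCm38 chromosome 8, 22757727 to 22782844, plus strand) encodes tissue-type plasminogen activator. It stood at 28.1 and 28.4 TPM in the vehicle libraries and at 6.81 and 8.63 TPM with TGFbeta. The vehicle libraries were almost equal, and both TGFbeta libraries lay far below them. The means were 28.2 ± 0.22 and 7.72 ± 1.29 TPM (SD, n = 2 each). The log2 change (mean log2(TPM + 1) with TGFbeta less that with vehicle) was -1.75 (SE 0.17, limma adjusted p = 0.00988). Only 1.09% of tested genes had a change at least as large in either direction. Leaving out vehicle 1 ended the call (-1.76, limma adjusted p = 0.105), as did leaving out vehicle 2 (-1.74, limma adjusted p = 0.126).

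Plau (ENSMUSG00000021822.3, chromosome 14, 20836660 to 20843385, plus strand) encodes urokinase. It was the lowest of the 6, at 7.54 and 5.39 TPM with vehicle and 3.29 and 3.99 TPM with TGFbeta. The groups did not overlap, but the vehicle libraries differed by 0.42 on the log2 scale. Libraries that do not overlap were common, at 55.3% of tested genes. The log2 change of Plau was -0.67 (SE 0.23), which did not pass (limma adjusted p = 0.14, unadjusted p = 0.0241). Its 95% interval from the limma fit, -1.23 to -0.12, covers a loss of over 2-fold as well as a small one.

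Together the activators summed to 35.6 and 33.8 TPM with vehicle and to 10.1 and 12.6 TPM with TGFbeta. Plat supplied 78.8% and 84% of that sum under vehicle and 67.4% and 68.4% under TGFbeta. Its level was the higher of the activators in all 4 libraries. The ratio of Plau to Plat was 0.269 and 0.19 with vehicle and 0.483 and 0.462 with TGFbeta, so it was higher in both TGFbeta libraries than in either vehicle library.

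Plaur (ENSMUSG00000046223.10, chromosome 7, 24462484 to 24475968, plus strand) encodes the urokinase receptor. Its level was 12.1 and 9.6 TPM with vehicle and 34.6 and 38.9 TPM with TGFbeta. Both TGFbeta libraries were well above both vehicle libraries. The means were 10.8 ± 1.75 and 36.8 ± 3 TPM (SD, n = 2 each), and the log2 change was 1.68 (SE 0.17, limma adjusted p = 0.0103). By size it ranked 67th from the top among the 15815 tested genes, and 1.32% of tested genes changed at least as much in either direction. The call was lost when any 1 library was left out, with log2 changes from 1.53 to 1.83 and a limma adjusted p of 0.0873 (vehicle 1 left out), 0.11 (vehicle 2), 0.052 (TGFbeta 1) or 0.0591 (TGFbeta 2).

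**Figure D1:**
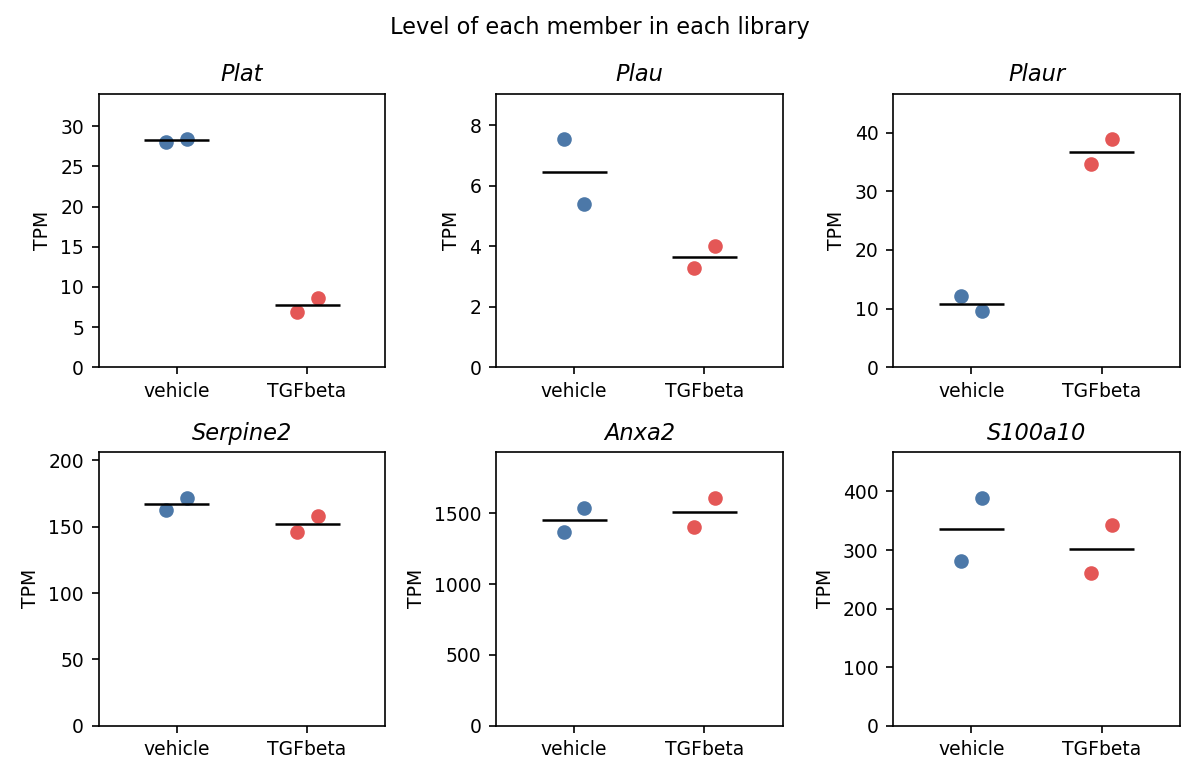
Level in TPM (linear axis from 0) of each of the 6 genes in the 2 vehicle and 2 TGFbeta libraries; points are libraries and lines are group means. Plat falls from about 28.2 to 7.72 TPM and Plaur rises from 10.8 to 36.8 TPM, while the groups of Anxa2 and S100a10 overlap.

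The ratio of receptor to ligand transcripts was higher in both TGFbeta libraries. Plaur exceeded Plau 1.6-fold and 1.78-fold in the vehicle libraries, and 10.5-fold and 9.75-fold with TGFbeta. On the log2 scale these ratios were 0.68 and 0.83 against 3.40 and 3.29. The ratios are given as a description, with no test.

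**Figure D2:**
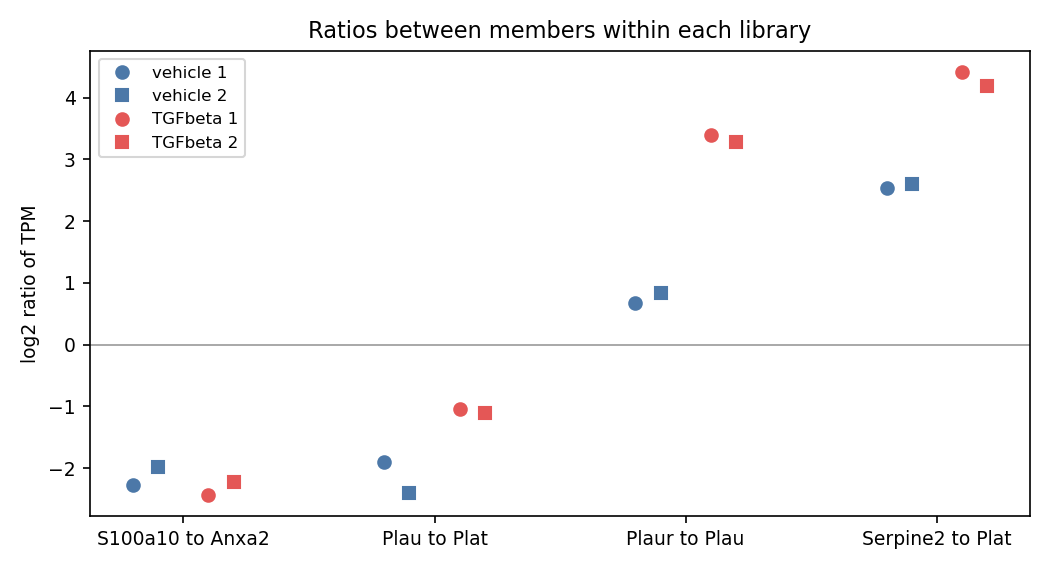
The log2 ratio of TPM between pairs of the 6 genes within each library, with vehicle in blue and TGFbeta in red. Plaur to Plau and Serpine2 to Plat are higher in both TGFbeta libraries, and S100a10 to Anxa2 overlaps between groups.

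The promoter of Plaur is shown because this gene rose, and that of Anxa2 because it holds the same motif and its gene did not pass the test. RefSeq sequences (GRCm38.p6) were matched for 3 of the 6 genes, Plaur, Anxa2 and Serpine2. Windows of 250 bases before the RefSeq start were searched. For Anxa2 that start, 69453683, lies inside the GENCODE gene given below, so the last 63 bases of its window are within the gene and only the 187 before it are printed. The whole Serpine2 window lies inside its GENCODE gene. The lines run 5′ to 3′ on the plus strand, with matches to TGANTCA, the AP-1 motif, in capitals.
Plaur, chr7:24462233-24462482: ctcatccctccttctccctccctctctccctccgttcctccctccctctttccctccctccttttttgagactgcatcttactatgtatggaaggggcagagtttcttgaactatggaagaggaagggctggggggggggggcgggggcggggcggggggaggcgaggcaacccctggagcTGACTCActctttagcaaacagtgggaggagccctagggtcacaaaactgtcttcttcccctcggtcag
Anxa2, chr9:69453433-69453619: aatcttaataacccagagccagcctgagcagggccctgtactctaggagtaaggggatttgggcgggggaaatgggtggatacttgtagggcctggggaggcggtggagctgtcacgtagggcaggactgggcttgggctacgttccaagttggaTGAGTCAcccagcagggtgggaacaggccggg

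The motif begins 69 bases before the RefSeq start of Plaur and 95 bases before that of Anxa2, which is 32 bases before the GENCODE start of Anxa2. On either strand, 6.75% of 32851 promoter windows of 250 bases held it. The GC box GGGCGG occurred 3 times in Plaur, 3 times in Anxa2 and 6 times in Serpine2, and 32.7% of windows held at least 1. The letters TATAAA were found 17 bases before the RefSeq start of Anxa2, inside the GENCODE gene, and in neither of the other 2, where 12.4% of windows held them. The Smad palindrome GTCTAGAC was in none of the 3 windows and in 0.167% of all windows, and the shorter CAGAC matched once, on the opposite strand of Serpine2 (GTCTG), where 42.2% of windows held it. TGANTCA matched in the windows of Plaur and Anxa2 and not in that of Serpine2. Whether any factor acts at these sites was not tested, and nothing about the factors follows from a match or its absence.

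Serpine2 (ENSMUSG00000026249.10, chromosome 1, 79794197 to 79861180, minus strand) encodes protease nexin-1. It had 163 and 172 TPM with vehicle and 146 and 158 TPM with TGFbeta. The TGFbeta libraries were slightly lower and the groups did not overlap, though by a narrow margin. The log2 change of -0.14 (SE 0.13) did not pass (limma adjusted p = 0.548), and its 95% interval ran from 0.73-fold to 1.12-fold on the TPM + 1 scale. Over all tested genes the median was itself -0.13, and after median scaling Serpine2 had 0.02. Serpine2 exceeded Plat 5.82-fold and 6.06-fold with vehicle and 21.4-fold and 18.3-fold with TGFbeta.

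Anxa2 (ENSMUSG00000032231.14, chromosome 9, 69453620 to 69491795, plus strand) encodes annexin A2, a calcium-dependent phospholipid-binding protein. It had the highest level of the 6, ranking 66th of all genes by vehicle mean, with 1371 and 1538 TPM with vehicle and 1405 and 1611 TPM with TGFbeta. The groups overlapped. The log2 change was 0.05 (SE 0.16, limma adjusted p = 0.884), with a 95% interval of 0.78-fold to 1.37-fold, and its sign turned after quantile normalization (-0.09). The antisense gene Gm16144 overlaps 2570 bases of the Anxa2 locus, and whether strand was used in the counting is not given in the sources used here.

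S100a10 (ENSMUSG00000041959.14, chromosome 3, 93555080 to 93564643, plus strand) encodes the light chain that binds annexin A2 and carries the plasminogen-binding end of the complex. It had 282 and 389.5 TPM with vehicle and 261 and 343 TPM with TGFbeta. The groups overlapped, and the libraries of 1 group differed by more (0.46 and 0.39 on the log2 scale) than the groups did. Its log2 change was -0.15 (SE 0.21, limma adjusted p = 0.72), with a 95% interval of 0.63-fold to 1.29-fold. After median scaling it was 0.01, without vehicle 2 it was 0.08 and without TGFbeta 1 it was 0.05. The ratio of S100a10 to Anxa2 was 0.206 and 0.253 with vehicle and 0.185 and 0.213 with TGFbeta. S100a10 thus had the lower level of the pair in all 4 libraries, and the ratio overlapped between groups.

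By mean level with vehicle, in TPM, the order was Anxa2 (1455), S100a10 (336), Serpine2 (168), Plat (28.2), Plaur (10.8) and Plau (6.46). With TGFbeta it was Anxa2 (1508), S100a10 (302), Serpine2 (152), Plaur (36.8), Plat (7.72) and Plau (3.64). The upper 3 kept their places, and Plat and Plaur exchanged theirs. Within each group, the libraries of neighbouring genes in this order did not overlap.

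**Figure D3:**
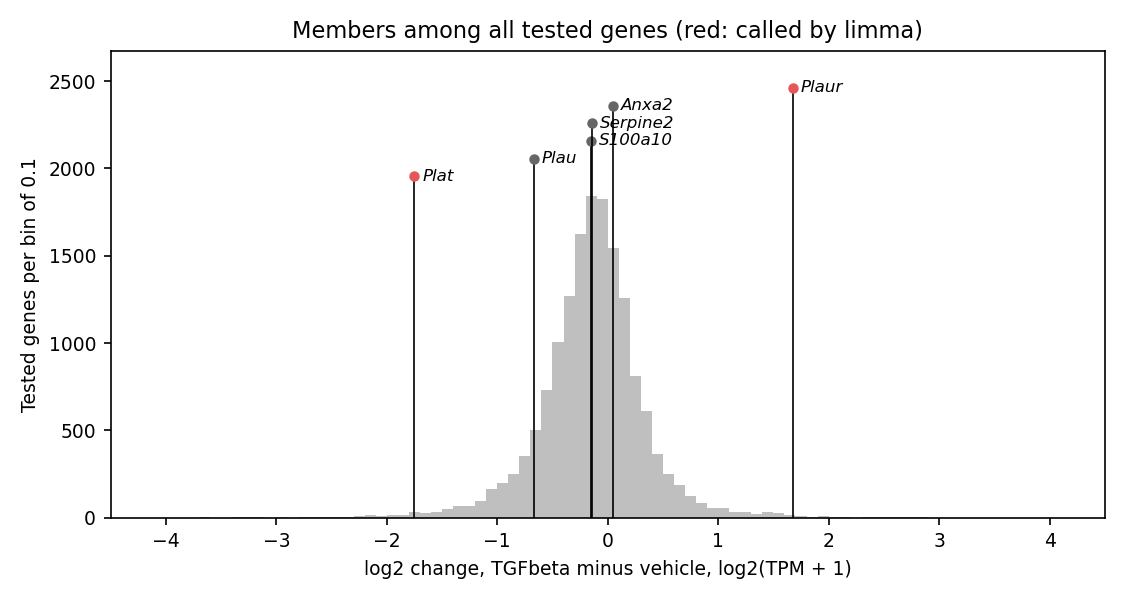
Histogram of the log2 change of log2(TPM + 1) for the 15815 tested genes, in bins 0.1 wide, with the 6 genes marked at their values. Plat (-1.75) and Plaur (1.68) lie in the tails, and Serpine2, S100a10 and Anxa2 lie within the central peak.

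The cultures carried the markers of their label, beside lower sums for other cell types. Cardiomyocyte markers summed to 67 and 103 TPM with vehicle and to 46.4 and 49.8 TPM with TGFbeta, mostly from Tnnt2. Mural markers summed to 305 and 312 TPM with vehicle and to 357 and 330.1 TPM with TGFbeta, mostly from Pdgfrb. All 10 fibroblast markers were tested and summed to 19663 to 23671 TPM per library. Of them 0 were called higher and 2, Pdgfra and Tcf21, lower (20%, against 4.38% of all tested genes). The 8 not called moved both ways, with Col1a1 at 1.89 and Col3a1 at 0.67 times the vehicle mean. Tissue-type activator is also made by endothelial cells, and the 9 endothelial markers summed to 84 and 88.8 TPM with vehicle and to 66.7 and 61.2 TPM with TGFbeta, with none at 0. Of the 8 tested, 0 were called (limma; 3 at an unadjusted p under 0.05), with a median log2 change of -0.25. The urokinase receptor is abundant in myeloid cells, and the 9 macrophage and leukocyte markers summed to 90.3 and 111 TPM with vehicle and to 76.5 and 77.7 TPM with TGFbeta, with none at 0. Of these 9, 0 were called (limma; 2 at an unadjusted p under 0.05). Both the endothelial and the leukocyte sum were lower with TGFbeta, though the largest marker of each list weighed on them. Egfl7 had a mean of 34.1 TPM with vehicle and 19.7 TPM with TGFbeta, and Lyz2 60.8 and 45.5 TPM. Among the rest some were lower, such as Esam (6.21 and 3.36 TPM), Cdh5 (6.83 and 4.31), Cd14 (3.81 and 1.97) and Cd68 (13.4 and 9.35). Others were flat or higher, such as Tek (18.9 and 18.7 TPM), Ptprc (1.2 and 1.21), Emcn (2.96 and 3.21) and Itgam (1.38 and 1.65). The part of other cell types in the results for Plat and Plaur was not tested.

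Related genes were then described by role, in 9 lists that hold 111 genes. Of the 79 tested, 3 were called higher (3.8%, against 1.54% of all tested genes) and 7 lower (8.86%, against 4.38%). Their median log2 change was -0.19, beside -0.13 over all tested genes. At an unadjusted limma p under 0.05 there were 29 of the 79, beside 3873 of all 15815 tested genes. With 1 library left out, the lists held 0 calls for either vehicle library, 1 for TGFbeta 1 and 0 for TGFbeta 2.

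Plg, the plasminogen gene, was listed at 0 in 3 libraries and at 0.0724 TPM in vehicle 2. Of 9 plasminogen, contact-phase and other activating protease genes, 3 were tested and 0 were called (limma; 1 at an unadjusted p under 0.05). Hpn, which encodes the membrane serine protease hepsin, had 7.2 and 9.58 TPM with vehicle and 3.53 and 5.58 TPM with TGFbeta (log2 change -0.77, limma adjusted p = 0.137). Hgfac, which encodes the activator of hepatocyte growth factor, had 3.54 and 4.74 TPM with vehicle and 3.05 and 3.85 TPM with TGFbeta, which overlap (-0.20, limma adjusted p = 0.631).

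Of 13 other serpins and antiproteases, 6 were tested. Among these, limma called 0 higher and 2 lower (33.3%, against 4.38% of all tested genes). Serping1, the C1 inhibitor gene, whose product also inhibits kallikrein, went from 1017 and 1125 TPM to 597 and 665 TPM (log2 change -0.76, SE 0.15, limma adjusted p = 0.0436). Serpinb8, which encodes an intracellular serpin, fell from 7.26 and 7.41 TPM to 3.42 and 3.07 TPM (-0.98, SE 0.19, limma adjusted p = 0.0407). Median scaling ended both calls, with limma adjusted p of 0.106 and 0.0598. The genes of plasmin's main circulating inhibitors had low levels: Serpinf2, for alpha-2-antiplasmin, lay between 0.199 and 0.597 TPM, and A2m between 0.279 and 0.926 TPM. Serpinb2, for an inhibitor of urokinase, was at most 0.215 TPM.

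Among other plasminogen-binding proteins and partners, 8 genes were tested. Limma called 1 higher (12.5%, against 1.54% of all tested genes) and 3 lower (37.5%, against 4.38%). Clec3b, which encodes tetranectin, a protein that binds a kringle of plasminogen, fell from 29.8 and 117 TPM to 3.05 and 3.53 TPM (log2 change -3.82, SE 0.57, limma adjusted p = 0.0241). Its vehicle libraries were far apart, and both lay above the TGFbeta libraries. The log2 change of Clec3b was -4.78 without vehicle 1 and -2.85 without vehicle 2, and its call ended in the robust fit (limma adjusted p = 0.109) and when any 1 library was left out. Dpp4, for a surface dipeptidase that binds plasminogen, fell by 1.40 (limma adjusted p = 0.0389), and Ahnak, for a giant scaffold protein that binds S100A10 with annexin A2, fell by 0.72 (limma adjusted p = 0.0436). Median scaling (-0.56, limma adjusted p = 0.0915) and quantile normalization (-0.63, limma adjusted p = 0.0795) ended the Ahnak call. Thbs1, for thrombospondin-1, which binds plasminogen and activates latent TGF-beta, rose from 505 and 365 TPM to 915 and 906 TPM (1.08, limma adjusted p = 0.0337). Without the intensity trend of the fit, the calls of Dpp4 (limma adjusted p = 0.0577), Ahnak (limma adjusted p = 0.0756) and Thbs1 (limma adjusted p = 0.0558) ended. Plgrkt, for a transmembrane plasminogen receptor, had 109 and 97.8 TPM with vehicle and 84.2 and 92.5 TPM with TGFbeta.

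Clearance receptors and partners of the urokinase receptor showed 1 of 16 tested higher and 1 lower, with a median log2 change of 0.17 (0.11 without vehicle 1, 0.10 without TGFbeta 2, 0.30 after median scaling). Itga3, an integrin subunit gene whose product pairs with the urokinase receptor, rose from 18.2 and 18.8 TPM to 38.5 and 30.5 TPM (0.86, SE 0.17, limma adjusted p = 0.0431). The Itga3 call ended without the intensity trend of the fit (limma adjusted p = 0.0651) and with a term for replicate number (limma adjusted p = 0.0692). Sorl1, for a sorting receptor that binds the urokinase receptor, fell from 4.88 and 5.55 TPM to 1.44 and 0.488 TPM (-1.70, SE 0.29, limma adjusted p = 0.0319). At these low levels the log2 change of Sorl1 was -2.48 with 0.1 TPM added before the log and -0.78 with 5 TPM added. Lrp1, for the receptor that takes up inhibitor-bound activators, had 1490 and 1796 TPM with vehicle and 1728 and 1449 TPM with TGFbeta, which overlap. Mrc2, for the collagen receptor that associates with the urokinase receptor, had 287 and 271 TPM with vehicle and 409.9 and 312 TPM with TGFbeta, short of the threshold (limma adjusted p = 0.262).

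The other annexin and S100 genes, relatives of the plasminogen receptor's components, had medians below 0, where the median over all tested genes was itself -0.13. Of 9 other annexin genes tested, 0 were called (limma; 5 at an unadjusted p under 0.05), with a median log2 change of -0.41 (-0.25 without vehicle 1, -0.24 after median scaling). Anxa1 went from 856 and 822 TPM to 399 and 589 TPM (-0.79, limma adjusted p = 0.084) and Anxa3 from 1023 and 939 TPM to 571 and 764 TPM (-0.57, limma adjusted p = 0.131). Restricting the test to protein-coding genes brought Anxa1 past the threshold (limma adjusted p = 0.0326). Of 11 other S100 genes tested, limma called 0 higher and 1 lower (9.09%, against 4.38% of all tested genes). Their median of -0.53 came to -0.37 after median scaling, to -0.13 without vehicle 2 and to -0.31 without TGFbeta 1. Over all tested genes the medians in these settings were 0.02, -0.16 and -0.12. S100a7a fell from 110.4 and 101 TPM to 54.2 and 49.6 TPM (-1.01, SE 0.13, limma adjusted p = 0.0176). S100a4, a gene long used as a fibroblast marker, went from 2744 and 3481 TPM to 1293 and 2077 TPM, short of the threshold (-0.91, limma adjusted p = 0.105). It passed after quantile normalization (-1.18, limma adjusted p = 0.0398) and where the test kept protein-coding genes and no others (-0.91, limma adjusted p = 0.0418). Whether the change of Anxa2 or S100a10 differed from that of its relatives was not tested.

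**Figure D4:**
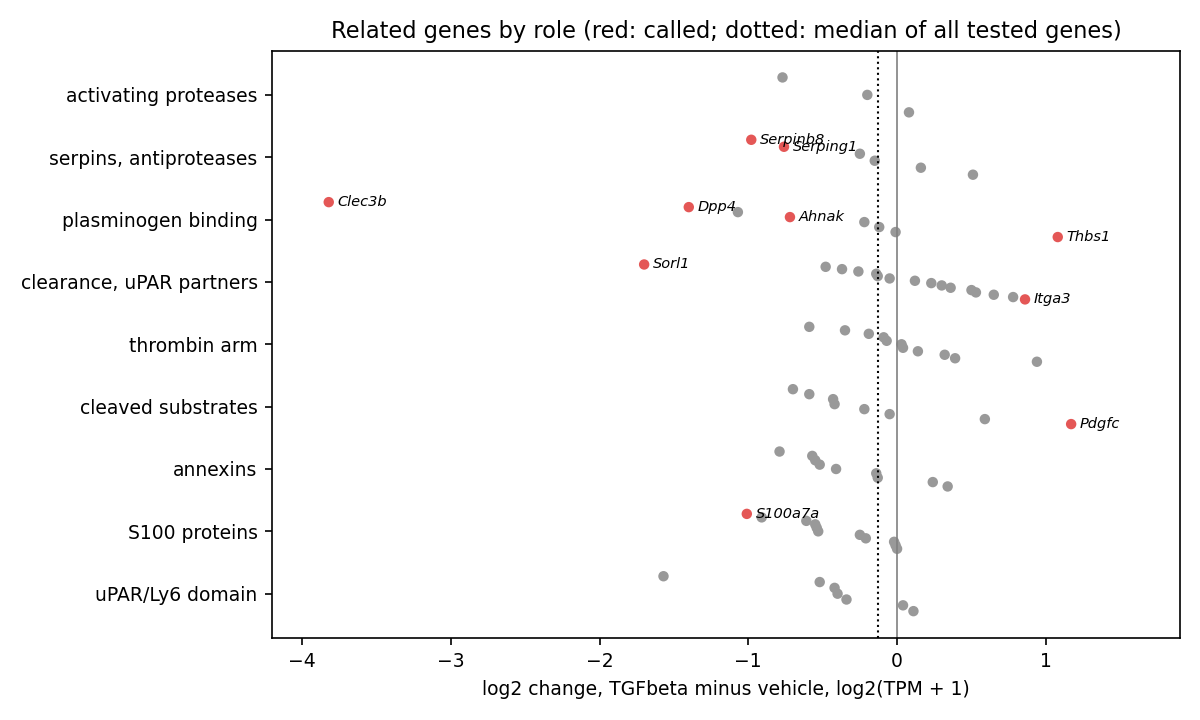
The log2 change of each tested gene of the 9 lists, 1 point a gene, with called genes in red and named; the dotted line marks the median of all tested genes (-0.13). Red points are 7 to the left and 3 to the right, and Clec3b (-3.82) lies farthest out.

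Genes with the closest profiles were sought among 10255 protein-coding genes with a mean of at least 5 TPM, by the Euclidean distance of log2(TPM + 1), centred on each gene's mean, over the 4 libraries. For Plat these were Bmp4 (distance 0.0388), Thsd7a (0.103) and Cntn2 (0.115). Bmp4, for a bone morphogenetic protein, had 229 and 232 TPM with vehicle and 59 and 73.7 TPM with TGFbeta. For Plaur they were Zdhhc2 (0.0982), Tfr2 (0.127) and Tmeff1 (0.228), of which Zdhhc2, for a palmitoyltransferase, had 11.5 and 8.23 TPM with vehicle and 31.1 and 34.7 TPM with TGFbeta. Plau was nearest to Slc22a5 (0.0269), Fndc4 (0.0386) and the matrix protease gene Adamts5 (0.0714). Serpine2 was nearest to Mrpl22, Rrbp1 and Chchd5, Anxa2 to Gabarap, Rep15 and Rps18, and S100a10 to Ttc39c, Tmem141 and Ing2, at distances from 0.0133 to 0.113.

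**Figure D5:**
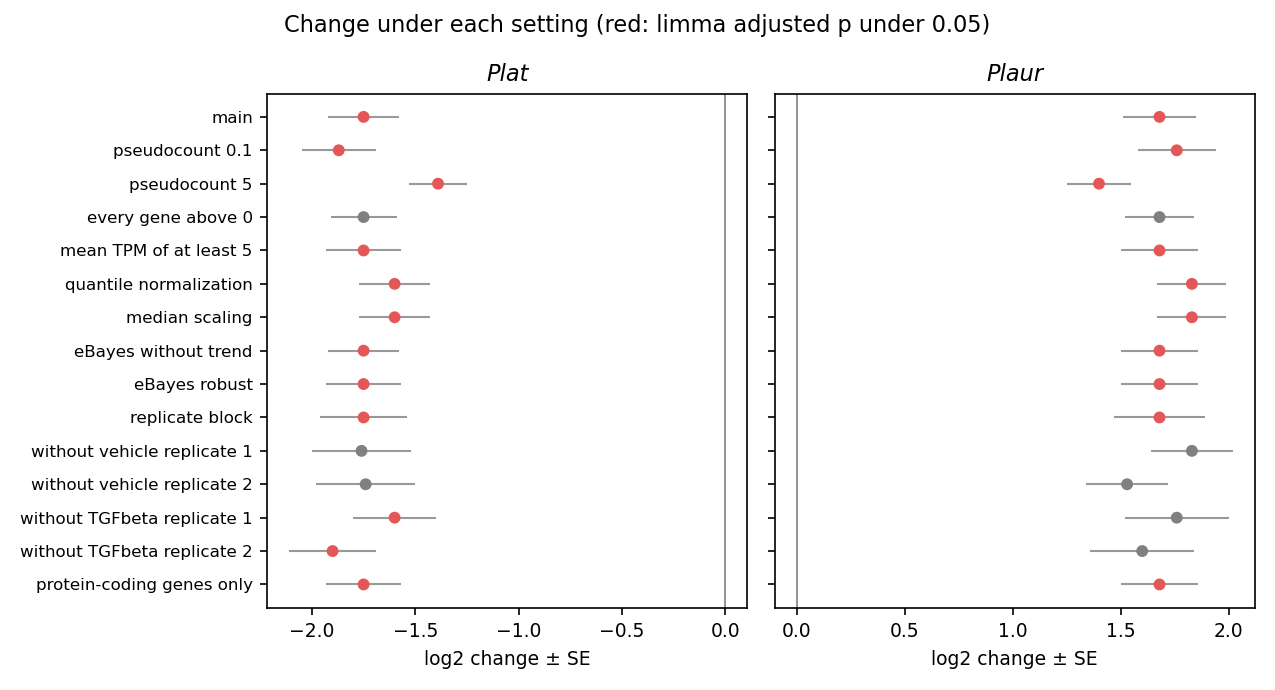
The log2 change ± SE of Plat and Plaur under the settings used for the main values and under 14 alternatives, in red where the limma adjusted p was under 0.05. Every value of Plat lies between -1.90 and -1.39 and every value of Plaur between 1.40 and 1.83, and the grey points are the settings that lost the call.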

How the data were processed

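The authors deposited 1 file per library with TPM per gene symbol, per the file headers; how reads were aligned and quantified, and on which build, is not given in the sources used here. Each total was checked to be 1000000. TPM keeps no read numbers, so depth is unknown and counting intervals cannot be given. Of the 33641 symbols, 32115 matched 1 gene of GENCODE M21 (GRCm38).

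Genes with a mean of at least 1 TPM (15815) were tested as log2(TPM + 1) with limma 3.58.1 in R 4.3.3 (lmFit, eBayes with trend; two-sided; treatment only), with Benjamini-Hochberg adjustment over all tested genes and a threshold of 0.05. On simulated data of the same size, 24% of 100 changes of 1 log2 unit and 67% of 100 changes of 2 were called. The simulation changed fewer genes than were called in the real data and shuffled the spread among genes. Its shares need not be those of the real test. The labels do not say whether libraries came from separate animals or cultures, so p-values measure only the spread between these samples. Same-numbered libraries deviated with a correlation of -0.0539, and the labels pair none.

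Members and lists were chosen with earlier results of these data known. Named genes are the members, the called genes and the 2 largest changes of each list, and the 3 closest profiles per member; other genes were named after their values were seen. Some genes of this system are not reported here. UTRs are those of the longest protein-coding transcript per gene (20981 genes). A blastn 2.17.0 search found no other transcript with at least 90% identity over 200 bases to a member.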

Additional observations from a re-analysis of the deposited data

How the results depend on the processing

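Plat and Plaur kept their direction under all 14 alternatives. When every gene above 0 was tested (23602 genes), 0 genes were called (limma; 4348 at an unadjusted p under 0.05), so 0 members, 0 list genes higher and 0 lower; Plat then had -1.75 (limma adjusted p = 0.0662) and Plaur 1.68 (limma adjusted p = 0.0669). With 1 library left out, the lone library was taken to be as variable as its counterparts in the other group; calls ranged from 0 to 203 genes (0 to 65 higher, 0 to 138 lower), 0 to 1 members, 0 list genes higher and 0 to 1 lower. The limma count was 0 without vehicle 1 (3033 at an unadjusted p under 0.05) and without vehicle 2 (2407). Log2 changes then ran from -1.90 to -1.60 for Plat, 1.53 to 1.83 for Plaur, -0.05 to 0.15 for Anxa2 and -0.38 to 0.08 for S100a10. Without an intensity trend 602 genes were called (437 lower; 1 list gene higher, 4 lower). With protein-coding genes alone the counts were 1708 in all, 426 higher and 1282 lower (6 and 13 list genes). Median scaling, which moved the median log2 change from -0.13 to 0.02, gave 410 higher and 399 lower beside 244 and 692 (6 and 4 list genes), and Serpine2 turned to 0.02 and S100a10 to 0.01. Quantile normalization gave 401 lower, and Anxa2 turned to -0.09. The robust fit gave 6 list genes higher. With the replicate block 445 genes were lower and 1 list gene was higher; Plat (-1.75, limma adjusted p = 0.011) and Plaur (1.68, limma adjusted p = 0.0127) stayed called. The cause of these shifts was not tested.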

Other observations

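The thrombin arm, which Serpine2 also restrains, held 11 tested genes of 13, of which 0 were called (limma; 2 at an unadjusted p under 0.05). Tfpi2, for a Kunitz-type inhibitor of plasmin, had 3.38 and 2.44 TPM with vehicle and 6.28 and 6.64 TPM with TGFbeta (log2 change 0.94, limma adjusted p = 0.058), and it passed after quantile normalization (1.11, limma adjusted p = 0.0408), median scaling (1.08, 0.0376), in the robust fit (0.0415) and among protein-coding genes (0.0188). Thbd, for the thrombin receptor thrombomodulin, had 35.6 and 27 TPM with vehicle and 17.5 and 23.4 TPM with TGFbeta (-0.59, limma adjusted p = 0.157). The thrombin receptor gene F2r had 117 and 88.8 TPM with vehicle and 128 TPM in both TGFbeta libraries.

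Of 12 growth factor, fibrinogen and matrix protease genes whose products the activators or plasmin cleave, 8 were tested. Of these, limma called 1 higher (12.5%, against 1.54% of all tested genes) and 0 lower, with 4 at an unadjusted p under 0.05. Pdgfc, for a latent growth factor that tissue-type activator cleaves to its active form, rose from 1.15 and 0.948 TPM to 3.15 and 4.13 TPM (1.17, SE 0.23, limma adjusted p = 0.0426). At these low levels the log2 change was 1.70 with 0.1 TPM added before the log and 0.51 with 5 TPM added. The Pdgfc call ended with the replicate block (limma adjusted p = 0.0659). Pdgfd, for the relative that urokinase cleaves, had 26.5 and 17.1 TPM with vehicle and 15.7 and 20.7 TPM with TGFbeta, which overlap. Mmp9 had 2.77 and 2.63 TPM with vehicle and 1.54 and 1.05 TPM with TGFbeta (-0.70, limma adjusted p = 0.131). Mmp2 had 439.5 and 536 TPM with vehicle and 308 and 336 TPM with TGFbeta (-0.59, limma adjusted p = 0.0833). Mmp14 went the other way, from 183 and 187 TPM to 295 and 264 TPM (0.59, limma adjusted p = 0.0581). The fibrinogen genes Fga, Fgb and Fgg were listed at 0 in all 4 libraries.

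Plaur also has relatives with the same protein fold. Of 7 tested genes of the uPAR and Ly6 domain family, 0 were called (limma; 3 at an unadjusted p under 0.05) and the median log2 change was -0.40 (-0.07 without TGFbeta 1, -0.10 with every gene above 0 kept, -0.24 after median scaling or quantile normalization). Ly6a, which encodes the surface marker Sca-1, had 96.7 and 253 TPM with vehicle and 36.1 and 74.6 TPM with TGFbeta (-1.57, limma adjusted p = 0.128), and it passed with the replicate block (limma adjusted p = 0.011) and where the test kept protein-coding genes and no others (limma adjusted p = 0.0441). Ly6e had 269.7 and 344 TPM with vehicle and 229 and 197 TPM with TGFbeta (-0.52, limma adjusted p = 0.136).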
